A study of Homo sapiens with 6 samples.

Results

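Assembly factors of the large ribosomal subunit are proteins that bind the precursor of its rRNA, fold, modify and cut it, and leave before the subunit enters translation. The genes described here are 40 such factors, chosen by name from a fixed list and found by Ensembl identifier. All 40 were present among the 20461 protein-coding genes of the expression table, and all 40 passed the filter on low counts. Their mRNA was measured by single-end RNA-seq in PANC1, an established human pancreatic carcinoma line. Cells had grown for 24 h before 48 h of either vehicle (0.1% DMSO) or 50 nM gemcitabine, a nucleoside analogue used against pancreatic cancer, and each condition had 2 libraries, given in the methods as biological replicates. Accessible chromatin was profiled by DNaseI-seq in 1 library per condition. The comparison asks which genes changed their expression under the drug, at 1 dose and 1 time in 1 cell line.

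The libraries held 15153598 and 15766232 fragments on genes for vehicle and 13194535 and 13275474 for gemcitabine. On these totals alone, a count of 3 fragments stood at 0.190 to 0.227 CPM (counts scaled to the size of the library). The members had 132 to 3926 fragments in a library. Of 6 epithelial markers, 5 exceeded 1 FPKM (fragments scaled to transcript length and to depth) in every library, and CDH1 did not. All 6 leukocyte, 6 acinar and 5 matched endothelial markers stayed under 0.5 FPKM in all libraries. Summed leukocyte markers reached 0.102 to 0.261 FPKM in vehicle and 0.265 to 0.493 FPKM in gemcitabine, endothelial markers 0.216 to 0.288 and 0.388 to 0.463 FPKM, and acinar markers at most 0.0542 FPKM, with the trypsinogen gene PRSS1 at 0 in all libraries.

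Assembly of the large subunit starts in the nucleolus, where RNA polymerase I makes the rRNA precursor and early factors fold its domains into a compact particle. Helicases, GTPases and AAA ATPases then drive the particle from one state to the next, and factors that hold the places of later ribosomal proteins are released on the way to the cytoplasm. Growing cells, carcinoma cells among them, express these genes at high levels, and MYC, a transcription factor that binds E-box letters, is a known activator of many of them.

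Promoters of the members with the largest falls are shown first, because the letters in them return below. Each is the 300 bases from 250 before to 50 after the start of the gene in the RefSeq promoter table (GRCh38.p14), placed on hg19 by an exact match. The sequences run in the direction of the gene, and capitals mark an E-box (CACGTG) or ETS-type letters (CCGGAAG, read on either strand). BOP1 belongs to the same group and is named only. RRP1 is added as the paralog of RRP1B, which had no entry in the table. The NOP16 promoter lies at chr5:175815550-175815849 on the minus strand, that of MDN1 at chr6:90529464-90529763 on the minus strand and that of NLE1 at chr17:33469273-33469572 on the minus strand. The GNL3 promoter lies at chr3:52719686-52719985, that of PAK1IP1 at chr6:10694955-10695254 and that of RRP1 at chr21:45209208-45209507, all on the plus strand.
NOP16: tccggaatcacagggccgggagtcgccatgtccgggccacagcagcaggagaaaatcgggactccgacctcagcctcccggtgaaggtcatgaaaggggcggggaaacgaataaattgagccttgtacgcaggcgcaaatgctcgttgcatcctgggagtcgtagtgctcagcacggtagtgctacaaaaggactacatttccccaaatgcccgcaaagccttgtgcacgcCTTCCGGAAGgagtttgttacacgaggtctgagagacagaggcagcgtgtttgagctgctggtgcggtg
MDN1: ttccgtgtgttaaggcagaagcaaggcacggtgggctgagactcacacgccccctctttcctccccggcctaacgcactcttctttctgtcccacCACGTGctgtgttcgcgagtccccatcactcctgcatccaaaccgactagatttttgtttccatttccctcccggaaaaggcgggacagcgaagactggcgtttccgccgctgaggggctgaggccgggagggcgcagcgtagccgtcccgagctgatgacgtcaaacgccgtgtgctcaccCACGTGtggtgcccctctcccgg
NLE1: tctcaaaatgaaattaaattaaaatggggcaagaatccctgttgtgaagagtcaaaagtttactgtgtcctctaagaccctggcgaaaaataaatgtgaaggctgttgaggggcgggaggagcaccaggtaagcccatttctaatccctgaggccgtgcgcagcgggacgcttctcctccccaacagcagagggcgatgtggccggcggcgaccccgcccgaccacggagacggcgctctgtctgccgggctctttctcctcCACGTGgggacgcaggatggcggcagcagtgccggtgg
GNL3: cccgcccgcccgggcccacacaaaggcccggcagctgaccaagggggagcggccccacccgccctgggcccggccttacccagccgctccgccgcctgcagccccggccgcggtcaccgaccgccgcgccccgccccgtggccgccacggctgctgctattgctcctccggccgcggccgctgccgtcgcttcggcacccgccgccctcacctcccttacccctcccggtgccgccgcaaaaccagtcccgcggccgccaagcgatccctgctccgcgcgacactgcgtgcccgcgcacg
PAK1IP1: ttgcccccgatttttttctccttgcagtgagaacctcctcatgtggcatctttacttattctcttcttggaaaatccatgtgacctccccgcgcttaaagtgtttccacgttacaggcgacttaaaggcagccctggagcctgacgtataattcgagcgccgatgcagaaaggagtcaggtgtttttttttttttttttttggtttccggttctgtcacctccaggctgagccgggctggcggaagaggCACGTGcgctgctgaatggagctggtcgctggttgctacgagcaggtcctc
RRP1: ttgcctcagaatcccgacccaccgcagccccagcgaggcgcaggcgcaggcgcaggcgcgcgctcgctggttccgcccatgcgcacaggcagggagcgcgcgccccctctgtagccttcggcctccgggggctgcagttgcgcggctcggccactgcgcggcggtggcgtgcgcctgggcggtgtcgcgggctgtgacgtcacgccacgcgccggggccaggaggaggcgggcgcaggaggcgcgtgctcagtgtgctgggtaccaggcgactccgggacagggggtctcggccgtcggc

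In NOP16 the ETS-type letters occur on both strands of a palindrome that starts 19 bases before the start, and no E-box is present. In MDN1 an E-box starts 155 bases before the start and another at base 28 after it. Single E-boxes begin at base 13 after the start in NLE1 and 1 base before it in PAK1IP1. The windows of GNL3 and RRP1 hold neither set of letters.

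After gemcitabine, the fitted log2 fold change was below 0 for all 40 members, as it was for 49.3% of the tested genes. Calls required an adjusted p below 0.05 in edgeR's quasi-likelihood test, a change of over 1.5-fold, and mean FPKM values that reached 0.1 in either condition and lay 1 or more apart. By these criteria 18 of the 40 members fell and 0 rose, beside 4.43% of all 14854 tested genes called lower and 5.69% called higher. Among the 9327 genes with a mean scaled count at least that of the lowest member, 5.68% were called lower. With the adjusted p alone, 36 members were lower (all tested genes: 20.0%; genes as abundant: 28.1%), of which 18 were not called. Of these 18, 17 missed only the fold criterion, and DDX51 missed that and the FPKM difference. That difference was taken without its sign. Among the 17, mean FPKM was higher in gemcitabine for RBM28 (33.2 against 31.6) and DDX27 (32.3 against 31.1), opposite to their counts. Scaled counts of both gemcitabine libraries lay below both vehicle libraries for all 40 members, as they did for 34.7% of all tested genes. Members on a list that the study drew from these libraries (PES1, BOP1, EBNA1BP2, RRP1B and BRIX1) were all 5 called, which is no independent evidence. Of the other 35 members 13 were called, and their median was -0.52. These too were chosen with earlier results of these data known, so the counts describe the list and were not tested.

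The median log2 fold change of the members was -0.56, with quartiles of -0.74 and -0.37, beside 0.0068 over all tested genes. It stood at the 8.60th percentile of the tested genes, and 23 members were in the lowest 10% and 34 in the lowest 25%. The scaled counts of the 40 members summed to 3688 and 3664 CPM in vehicle and to 2517 and 2557 CPM in gemcitabine. Their share of all fragments was 0.354% in both vehicle libraries and 0.265% and 0.262% in gemcitabine. These values are relative to the other mRNAs of a library, and in bulk RNA a fall in every cell and a fall in some of the cells cannot be told apart.

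**Figure D1:**
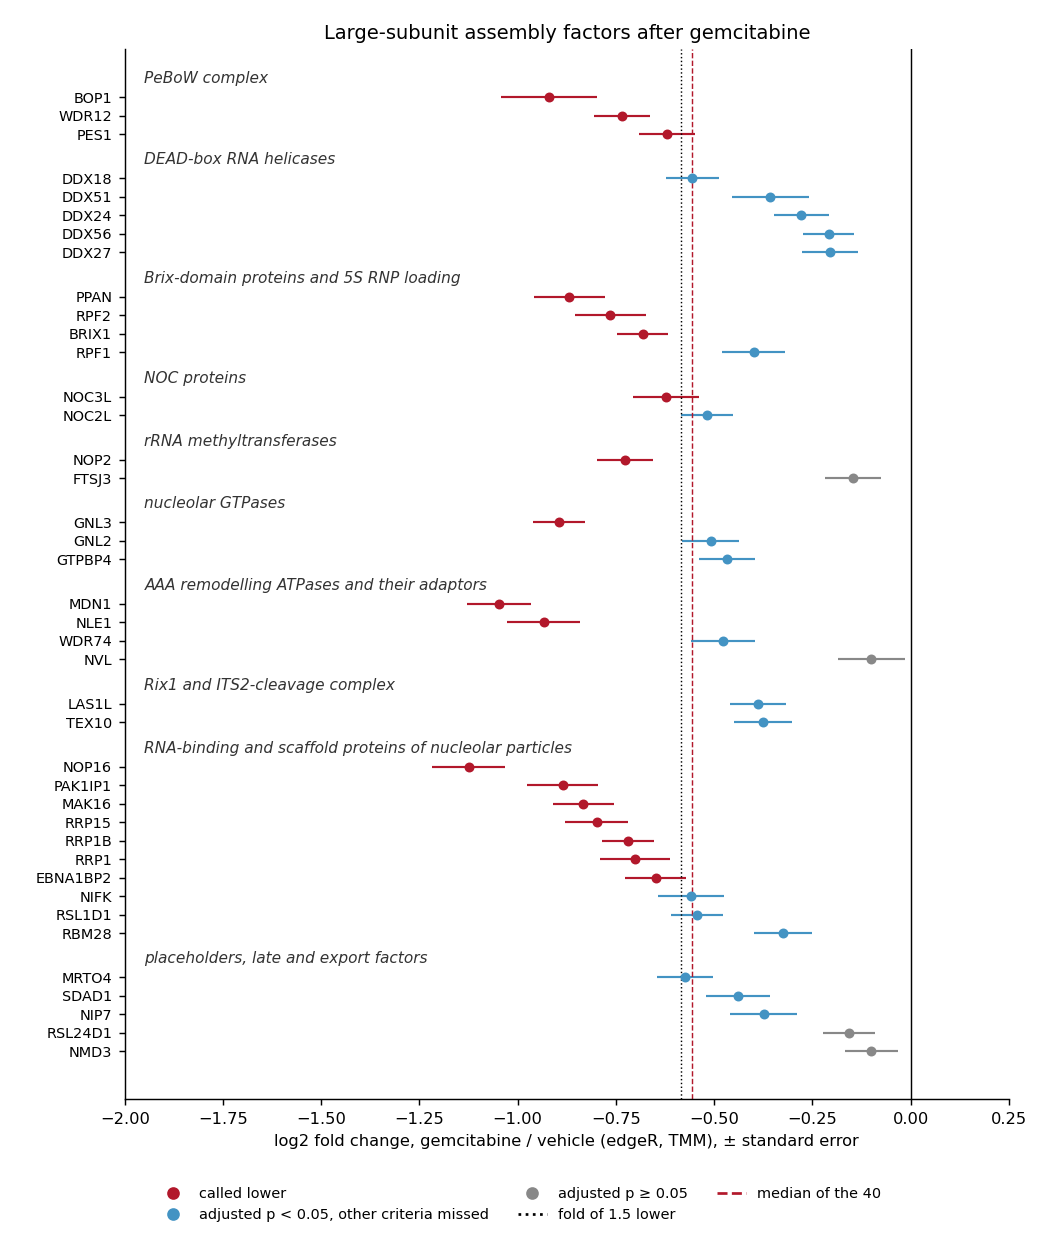
Log2 fold change of gemcitabine over vehicle (x axis, edgeR with TMM scaling) for each of the 40 assembly factors, grouped by role, with bars of 1 standard error. All 40 points lie left of 0, the 18 called members are in red, and the dashed line marks the median of -0.56.

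PES1, BOP1 and WDR12 form the PeBoW complex, a nucleolar trimer needed to process the rRNA precursor of the large subunit. All 3 subunits were called lower, beside 4.43% of all tested genes (median log2 fold change -0.74, the value of WDR12). BOP1, the scaffold subunit, stood at 17.9 and 18.7 CPM in vehicle and at 9.66 and 9.69 CPM in gemcitabine (log2 fold change -0.92 ± 0.123 SE, edgeR adjusted p = 4.2e-05). WDR12 was at 80.1 and 81.0 CPM in vehicle and 47.8 and 49.0 CPM in gemcitabine (-0.74 ± 0.072, adjusted p = 2.66e-06), but its log2 ratio of mean FPKM was -0.22 and it was not called with limma on log2(FPKM + 1) (adjusted p = 0.233). PES1, which carries a BRCT domain, was at 141 and 131 CPM against 85.2 and 91.9 CPM (-0.62 ± 0.071, adjusted p = 1.11e-05). On scaled counts the conditions did not overlap for any subunit, as for all 40 members and for 34.7% of all tested genes. BOP1 had the fewest fragments of the members and the largest standard error. PES1 lay close to the fold criterion and was not called without vehicle library 1 or without gemcitabine library 1 (-0.56 in both fits), nor with library totals (-0.51) or limma on log2(FPKM + 1) (-0.58).

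Brix-domain proteins and their partners place the particle that holds 5S rRNA and fold the early precursor. Of the 4 members PPAN, RPF2 and BRIX1 fell, and RPF1 had an adjusted p of 0.00116 with a log2 fold change of -0.40. PPAN, the homologue of yeast SSF1, was at 50.7 and 49.3 CPM in vehicle and at 25.4 and 29.3 CPM in gemcitabine (-0.87 ± 0.090, edgeR adjusted p = 4.69e-06). RPF2, which recruits the 5S particle, was at 35.8 and 35.4 CPM against 20.8 and 21.1 CPM (-0.76 ± 0.091, adjusted p = 1.5e-05). BRIX1 was the most abundant of them, at 220 and 218 CPM against 136 and 137 CPM (-0.68 ± 0.065, adjusted p = 2.13e-06). In each of the 3, all vehicle libraries were above all gemcitabine libraries, as for every member on scaled counts. PPAN shares 49.2% of its exonic bases with P2RY11 and the PPAN-P2RY11 read-through gene on the same strand, so its counts are uncertain.

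AAA ATPases pull assembly factors off the particle, and the adaptors are the proteins they pull on. MDN1, a giant dynein-like ATPase, and NLE1, the adaptor that MDN1 removes, were both called. MDN1 was at 66.1 and 72.2 CPM in vehicle and at 34.5 and 32.5 CPM in gemcitabine (-1.05 ± 0.082, edgeR adjusted p = 3.9e-07). NLE1 was at 45.0 and 43.3 CPM against 21.7 and 24.5 CPM (-0.93 ± 0.092, adjusted p = 3.11e-06). On counts both pairs of gemcitabine libraries stood near 50% of vehicle (48.4% and 52.4%). Their falls were smaller in FPKM, with log2 ratios of the means of -0.77 for MDN1 and -0.76 for NLE1. The other ATPase and adaptor, NVL and WDR74, differed from this pair in their values. NVL was at 36.7 and 35.2 CPM in vehicle and at 34.2 and 32.8 CPM in gemcitabine (-0.10 ± 0.085, adjusted p = 0.383). WDR74, the protein that NVL releases, was lower by the adjusted p (0.000323) at a log2 fold change of -0.48 and missed the fold criterion.

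Nucleolar GTPases act as checkpoints between states of the particle. GNL3, or nucleostemin, was at 209 and 204 CPM in vehicle and at 112 and 110 CPM in gemcitabine (-0.89 ± 0.066, edgeR adjusted p = 2.18e-07), the lowest adjusted p of the members. GNL2 and GTPBP4, the other GTPases, had log2 fold changes of -0.51 and -0.47 with adjusted p of 7.68e-05 and 0.000128, and both missed the fold criterion. In this role 1 of 3 members was called (all tested genes called lower: 4.43%), and the median was -0.51.

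The largest role, RNA-binding and scaffold proteins of nucleolar particles, had 7 of 10 members called and a median of -0.71. Of all tested genes 4.43% were called lower. NOP16, a nucleolar protein of the early particles, had the largest fall of all members. It was at 46.0 and 45.5 CPM in vehicle and at 19.6 and 22.4 CPM in gemcitabine (-1.12 ± 0.093, edgeR adjusted p = 6.6e-07), which is 45.9% of vehicle. PAK1IP1, a WD-repeat protein also known to inhibit the kinase PAK1, was at 38.5 and 38.2 CPM against 20.8 and 20.6 CPM (-0.89 ± 0.090, adjusted p = 3.88e-06). MAK16, a partner of RPF1, was at 74.2 and 79.9 CPM against 42.2 and 44.4 CPM (-0.83 ± 0.077, adjusted p = 1.66e-06). RPF1 stood at 75.8% of vehicle and MAK16 at 56.1%, and the difference between them was not tested.

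RRP15, a factor of the early precursor, was at 58.2 and 62.5 CPM in vehicle and at 34.8 and 34.6 CPM in gemcitabine (-0.80 ± 0.080, edgeR adjusted p = 3.37e-06). The paralogs RRP1B and RRP1 lie on chromosome 21 and were both called. RRP1B was at 195 and 198 CPM against 117 and 122 CPM (-0.72 ± 0.066, adjusted p = 1.53e-06). RRP1 was at 42.8 and 41.7 CPM against 24.8 and 27.2 CPM (-0.70 ± 0.089, adjusted p = 2.63e-05). RRP1B thus had the higher scaled count in each library, but scaled counts are not per length. In FPKM the gap was smaller, with RRP1B at 36.0 and 35.2 in vehicle and RRP1 at 28.9 and 26.4. Neither gene overlapped between conditions. EBNA1BP2, named for its binding to a viral nuclear antigen, was at 116 and 109 CPM against 77.0 and 66.6 CPM (-0.65 ± 0.078, adjusted p = 1.64e-05), and was not called without gemcitabine library 2 (-0.55). The remaining 3 of this role passed the adjusted p but not the fold criterion. They were NIFK, which binds the proliferation protein Ki-67 (-0.56, and called at -0.64 without gemcitabine library 1), RSL1D1, a nucleolar protein tied to senescence (-0.54), and RBM28, which holds several RNA recognition motifs (-0.33).

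NOC proteins form dimers that accompany the particle from nucleolus to nucleoplasm. NOC3L was at 58.4 and 65.3 CPM in vehicle and at 38.6 and 41.8 CPM in gemcitabine (-0.62 ± 0.084, edgeR adjusted p = 4.7e-05). It was not called without vehicle library 2 (-0.53) or without gemcitabine library 1 (-0.56). NOC2L had a log2 fold change of -0.52 and missed the fold criterion. Of the rRNA methyltransferases, NOP2, which places a methyl group on a cytosine of the large rRNA, was at 96.5 and 93.5 CPM against 59.2 and 55.6 CPM (-0.73 ± 0.071, adjusted p = 2.85e-06). FTSJ3, which methylates ribose, was at 83.8 and 85.6 CPM against 73.7 and 79.3 CPM (-0.15 ± 0.070, adjusted p = 0.116). The conditions of FTSJ3 did not overlap, but its difference did not pass the test.

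DEAD-box RNA helicases unwind RNA at several steps of assembly, and none of the 5 members was called. On the count scale all 5 passed the adjusted p in the direction of a fall, with a median of -0.28. On the FPKM scale the direction turned for DDX51 (log2 ratio 0.13) and DDX27 (0.05). DDX51 was at 9.92 and 9.16 FPKM in vehicle and at 10.8 and 10.1 FPKM in gemcitabine. The FPKM ratio stayed below 0 for DDX18 (-0.41), DDX56 (-0.39) and DDX24 (-0.24), beside a median of 0.14 over all tested genes. On counts DDX18 had the largest difference of the 5 (-0.56), followed by DDX51 (-0.36), DDX24 (-0.28), DDX56 (-0.21) and DDX27 (-0.20, edgeR adjusted p = 0.0343). DDX18 was within 0.03 of the fold criterion on the log2 scale, and it was called without gemcitabine library 1 (-0.59). The Rix1 complex and its partner nuclease remove the second internal spacer of the precursor, and both members passed the adjusted p only. LAS1L, the nuclease, had a log2 fold change of -0.39 and TEX10, a scaffold of the complex, one of -0.38.

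Placeholders, late and export factors had 0 of 5 members called (all tested genes called lower: 4.43%) and a median of -0.37. MRTO4, which holds the place of the stalk protein P0, was nearest to the fold criterion (-0.57, edgeR adjusted p = 2.5e-05), and was called without vehicle library 1 or without gemcitabine library 1 (both -0.59). SDAD1, which meets the nuclear particle, had a log2 fold change of -0.44, and NIP7, an RNA-binding factor, one of -0.37. RSL24D1, which holds the place of a ribosomal protein that joins in the cytoplasm, had one of -0.16 and missed the adjusted p (0.0773). NMD3, the export adaptor, had the smallest difference of all members beside NVL, at 103 and 109 CPM in vehicle and 100 and 97.4 CPM in gemcitabine (-0.10 ± 0.068, adjusted p = 0.266). The 2 libraries of each condition were close for all members, with a largest gap of 14.5% of their mean and a median gap of 3.88%.

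On the FPKM scale, which is per length and allows levels of genes to be compared, the members had a median of 40.4 in vehicle and 33.2 in gemcitabine, beside 11.9 over all tested genes in vehicle. RSL1D1 was the most abundant, at 289 and 267 FPKM in vehicle and 200 and 197 FPKM in gemcitabine. GNL3 followed with 216 and 201 FPKM in vehicle and BRIX1 with 209 and 201 FPKM, which did not differ beyond their spread. After gemcitabine their order turned, with BRIX1 at 127 and 134 FPKM and GNL3 at 115 and 110 FPKM. At the other end MDN1 was at 9.22 and 9.21 FPKM in vehicle and DDX51 at 9.92 and 9.16 FPKM, which overlapped. MDN1 fell to 5.58 and 5.22 FPKM. Across the 40 members the log2 level in vehicle and the log2 fold change were nearly unrelated (Pearson r = 0.037, Spearman rho = 0.072, n = 40 genes, which share the libraries and are not independent).

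**Figure D2:**
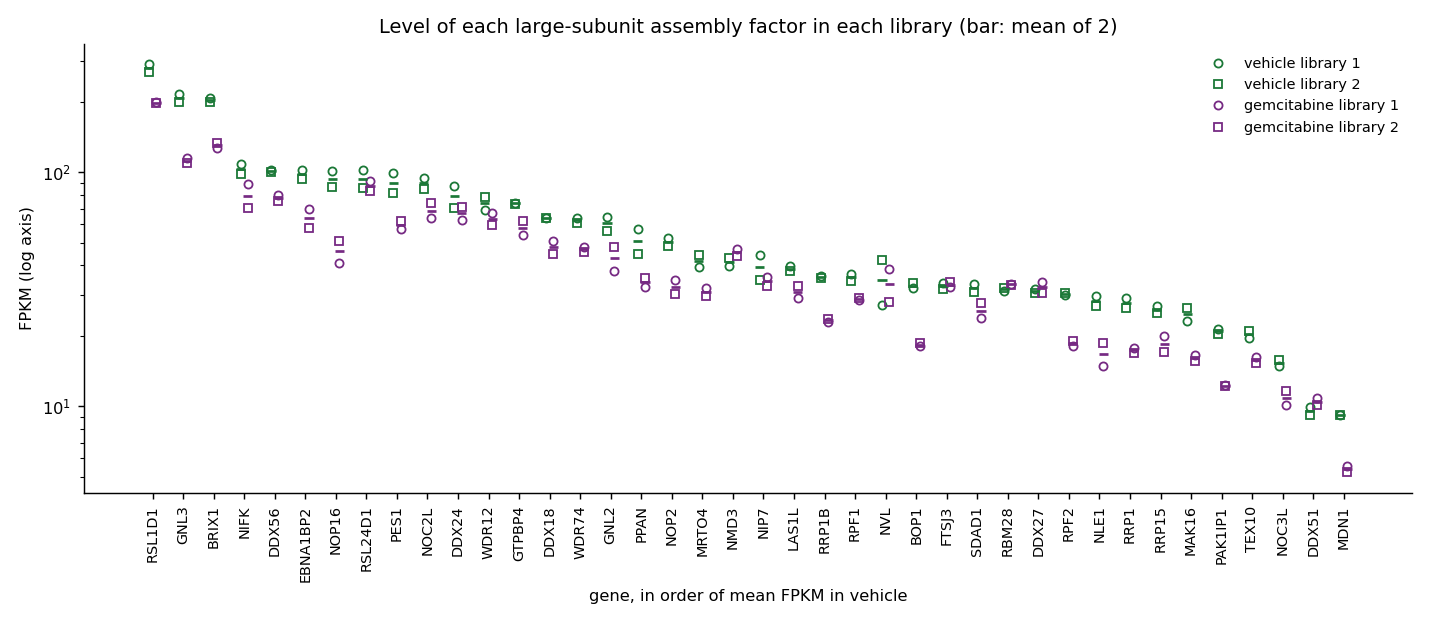
FPKM of each assembly factor (log axis) in the 2 vehicle libraries (green) and the 2 gemcitabine libraries (purple), in order of the mean in vehicle, with a bar at each mean of 2. Levels run from 278 FPKM for RSL1D1 down to 9.21 FPKM for MDN1 in vehicle, and the gemcitabine points of 31 members lie wholly below their vehicle points.

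FPKM also served as the other readout of the same libraries, and most differences were smaller on it. In FPKM 31 members had both gemcitabine libraries below both vehicle libraries (all tested genes: 20.3%) and 3 had them above. The median log2 ratio of mean FPKM was -0.43 for the members and 0.14 for all tested genes, a gap of -0.56, and the gap on the count scale was also -0.56. All 40 members lay below the median ratio of all genes, NMD3 and DDX51 only narrowly (both 0.134 against 0.136). With limma on log2(FPKM + 1) or log2(FPKM + 0.1), 2 members lay above the median of all genes. Without a filter 4 did. The ratio of mean FPKM was above 1 for DDX51, RBM28, DDX27, FTSJ3 and NMD3, and none of these 5 had been called. For 9 members the FPKM ratio exceeded the count fold change by more than 0.2 on the log2 scale. WDR12 had the widest gap among the called members. Its count fell by 0.74 on the log2 scale, while its FPKM was 68.8 and 78.8 in vehicle and 67.0 and 59.8 in gemcitabine, a log2 ratio of -0.22. With limma on log2(FPKM + 1), 4 called members beside WDR12 were not called, which were PPAN (-0.56, adjusted p = 0.0555), RRP15 (-0.47, adjusted p = 0.0633), NOC3L (-0.46, adjusted p = 0.0727) and PES1, which missed the fold criterion. Scaled to library totals in place of TMM, counts of BRIX1 (-0.57), EBNA1BP2 (-0.54), NOC3L and PES1 (both -0.51) missed that criterion.

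**Figure D3:**
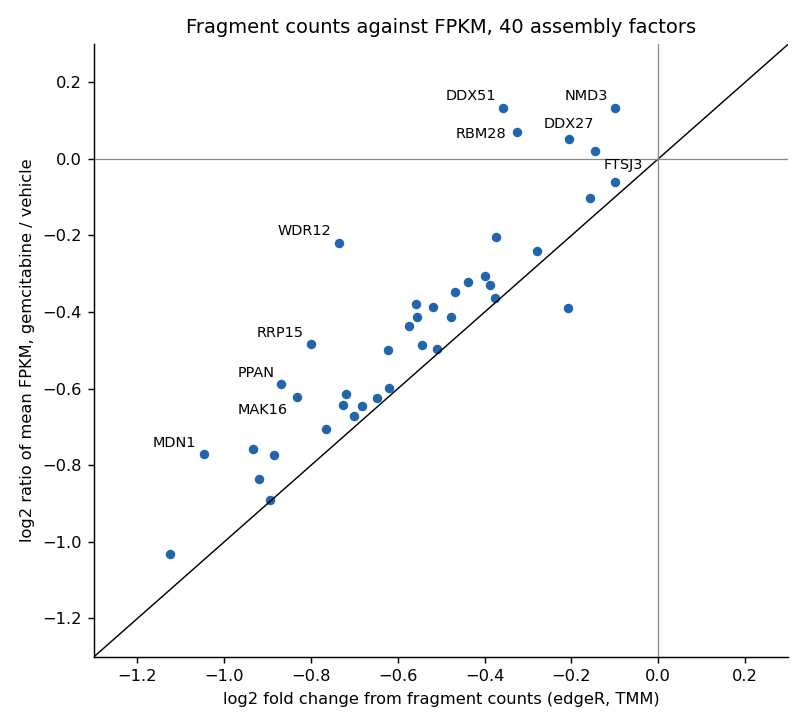
Log2 ratio of mean FPKM (y axis) against the log2 fold change from fragment counts (x axis) for the 40 assembly factors, with a line of equality. Most points lie above the line, WDR12 stands at -0.74 and -0.22, and 5 members lie above 0 on the y axis.

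A list of 50 other genes of large-subunit assembly was read in the same fit, of which 48 were matched and tested. Of these 14 fell and 0 rose by the call criteria, beside 4.43% and 5.69% of all tested genes. Their median log2 fold change was -0.38. Cuffdiff marked 1 of the 14, NOL8, as failed in at least 1 library. For PDCD11, another of them, FPKM was 209 and 118 in vehicle and 129 and 13.1 in gemcitabine, so that the conditions overlapped on that scale. The adjusted p alone was passed by 31 lower (all tested genes: 20.0%) and by 1 higher (RBM34, 0.20, all tested genes: 18.5%). The 6 largest called falls were those of MYBBP1A (-1.09), CCDC86 (-0.996), RRS1 (-0.98), PUM3 (-0.98), DDX31 (-0.85) and URB2 (-0.83). RRS1, which loads the 5S particle together with RPF2, was at 52.8 and 52.9 CPM in vehicle and 24.9 and 28.7 CPM in gemcitabine. MYBBP1A, a nucleolar protein that binds MYB, was at 246 and 244 CPM against 112 and 118 CPM.

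**Figure D4:**
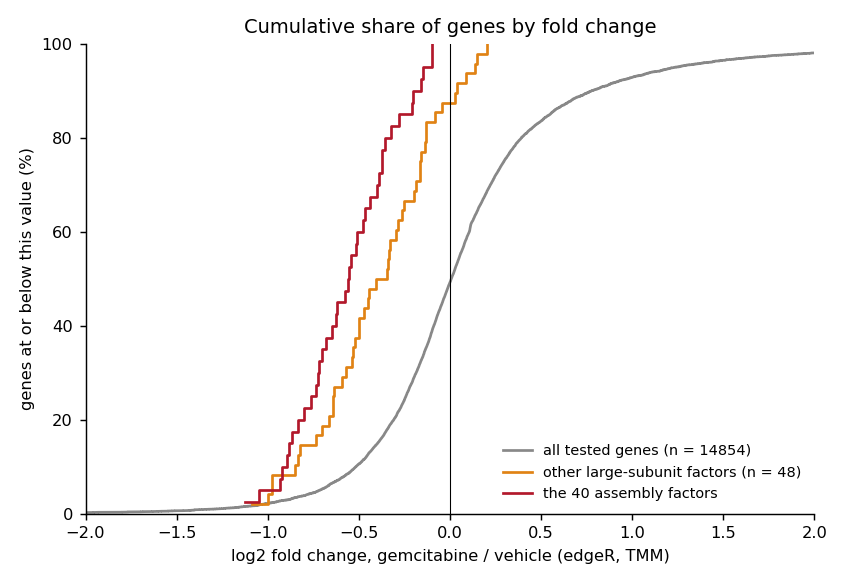
Cumulative share of genes (y axis, percent) at or below each log2 fold change (x axis) for the 40 assembly factors, 48 other large-subunit factors and all 14854 tested genes. The curve of the 40 reaches 100% before 0, with a median of -0.56, while the median is -0.38 for the other factors and 0.0068 for all genes.

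The 40 genes lie on 21 chromosomes, with 7 on chromosome 1. Some exonic bases are shared with another gene of the table in 20 members, and over 10% in 8. Beside PPAN these include NOP16 (18.6%, with ARL10 and HIGD2A on the opposite strand), MAK16 (21.1%, with TTI2), EBNA1BP2 (13.7%, with CFAP57) and NLE1 (12.6%, with FNDC8). The sources used here do not state whether fragments were counted by strand, so reads of these genes and their partners cannot be told apart. The other 13 called members share under 10%.

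DNaseI peaks, regions where chromatin is open to the enzyme, were called by the authors in each condition, with 9606 peaks in vehicle and 10695 in gemcitabine. A peak lay within 1000 bases of an annotated start for 18 members in vehicle (45.0%) and 21 in gemcitabine (52.5%). The shares over tested genes were 29.1% and 33.6%, and over genes as abundant as the lowest member 37.0% and 42.2%. A peak in both conditions was present at 17 members, and 18 had none in either. RSL1D1 had its peak only in the vehicle list (score 113), with its centre 1 base from the start. BOP1, GNL3, RPF1 and RRP1 had theirs only in the gemcitabine list, with scores of 50.6, 61.8, 62.6 and 60.0, all near the lower limit of the list. The score ranks peaks within a list and is not comparable between lists, and with 1 library per condition no difference was tested.

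In the gemcitabine list, over all annotated starts, the highest scores at members were those of WDR74 (205), PES1 (162) and DDX27 (158), which had 184, 126 and 113 in the vehicle list. Of these only PES1 was called in expression. Among the members with large falls, NOP16, MDN1 and PAK1IP1 had a peak in both conditions, over the promoters printed above, and NLE1 had none within the window in either. A peak in at least 1 condition was found at 10 of the 18 called members and at 12 of the 22 others.

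The promoter table held 34 of the 40 members, and all 34 were placed on hg19. The E-box letters CACGTG, which read the same on both strands, were present in 11 of the 34 (32.4%), beside 8.88% of all 15843 coding promoters and 9.73% of the tested genes with a promoter. The ETS-type letters CCGGAAG were present in 15 (44.1%), beside 14.2% and 17.8%. Searched on both strands as well, the NRF1-type letters GCGCATG were in 3 (8.82%), beside 5.87% of all coding promoters and 7.05% of tested genes. The BANP-type letters TCTCGCG were in 3 (8.82%, beside 4.96% and 6.25%) and the YY1-type letters AAGATGG in 4 (11.8%, beside 6.40% and 6.96%). No motif is contained in another, and the ETS-type letters can overlap on opposite strands, as in NOP16. A match is a description of letters and not of binding.

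Members with an E-box were EBNA1BP2, GNL2, MDN1, MRTO4, NLE1, NOC3L, NOP2, PAK1IP1, PES1, SDAD1 and TEX10. Of these 11, 7 were called, and their median log2 fold change was -0.62. Of the 23 with no E-box in the window 7 were called, with a median of -0.40. Over all tested genes the medians were -0.11 with the letters and 0.011 without them. Of all tested genes 4.43% were called lower, a share not split by letters here. Of the 15 members with ETS-type letters, 4 were called (NOP16, BRIX1, RRP15 and NOC3L), with a median of -0.40 over the 15. Of the 19 with no ETS-type letters in the window 10 were called, with a median of -0.62. Both kinds of letters were present in NOC3L and TEX10. The median GC content of the 34 promoters was 61.8%, beside 65.0% for tested genes.

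**Figure D5:**
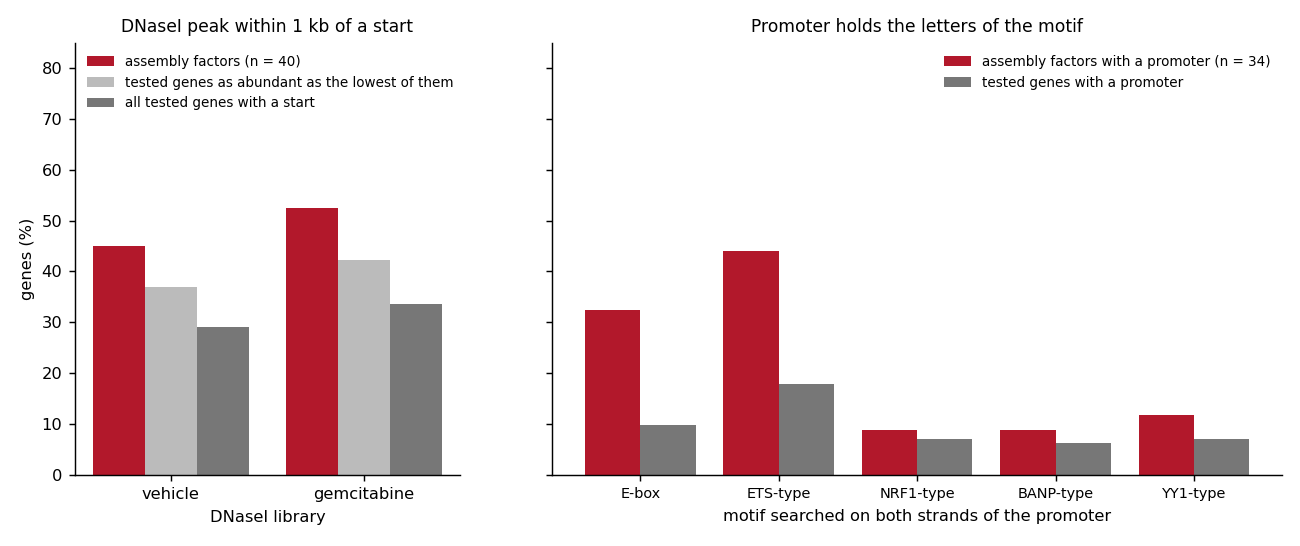
Left, share of genes (percent) with a DNaseI peak within 1 kb of a start in each library, for the 40 assembly factors, tested genes at least as abundant as the lowest of them, and all tested genes with a start. Right, share of promoters that hold each motif for the 34 assembly factors with a promoter and for tested genes, where the E-box stands at 32.4% against 9.73% and the ETS-type letters at 44.1% against 17.8%.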

How the data were processed

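RNA-seq of 2 vehicle and 2 gemcitabine libraries and DNaseI-seq of 1 library per condition were used. Per the submitters' processing notes and the study's methods, the authors aligned reads with TopHat2 2.0.8 to hg19 and ran Cuffdiff 2.0.2 on protein-coding genes of Gencode release 15 with a minimum of 10 reads. The deposited table holds the authors' estimated counts, which are fragments per gene and library and need not be whole, and their FPKM. The 2 further columns scaled by Cuffdiff were not used. The deposited DNaseI lists hold peaks that the authors called with MACS in each condition, each with a score. Peaks had no replicate.

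Estimated counts were rounded, and the 14854 genes with 10 or more fragments in all 4 libraries together entered 1 fit of edgeR 4.0.16 (R 4.3.3, TMM, quasi-likelihood test). It had no covariate, and p-values were adjusted by Benjamini-Hochberg over all these genes. Standard errors came from the fold change and F. CPM are TMM-scaled. P-values measure the spread between the libraries, and the floors given with depth cover counting error only. The members and lists were chosen with earlier results of these data known, so no test was made over a list. Values by library are given for called members and for the 3 smallest changes, other members by fold change, and the 6 largest called falls of the other factors. The fit was also run on counts simulated for 14722 genes of this comparison, of which 200 were changed. By the adjusted p alone, edgeR recovered 95% of 1.5-fold and 100% of 2-fold changes, and 1.52% of the genes that passed were false. The changed genes were well covered and rose as often as they fell, and all genes had the same spread. The fold and FPKM criteria were not applied, so these are not error rates of the calls given here.

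Alternatives were DESeq2 1.42.0, its size factors or library totals in edgeR, other count filters, limma 3.58.1 on log2(FPKM + 1) or log2(FPKM + 0.1), other thresholds, each library left out, and other peak windows and scores. Starts and exons came from Gencode release 44 carried over to hg19. The composition of the proteins was not analysed here.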

Additional observations from a re-analysis of the deposited data

How the results depend on the processing

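No paired analysis was possible because the table numbers its libraries with an index of its own, which the labels do not link to their replicates. Members called lower numbered 18, against 36 with adjusted p under 0.05 as the only criterion and 0 with limma on log2(FPKM + 1) without a filter, where no gene of the table passed and 27 members had an unadjusted p under 0.05 lower. Apart from limma without a filter, 11 of the called members were called in every alternative fit. Leaving out 1 library gave 17 to 19 calls, with 15 members called in all 4 such fits, and a median of -0.56 to -0.55. The median of the members was -0.45 with library totals, -0.42 with limma on log2(FPKM + 1), -0.42 with log2(FPKM + 0.1) and -0.42 without a filter, while library totals moved the median of all genes to 0.12. Of the other factors 14 were called lower (all tested genes: 4.43%). The number was 9 with library totals, 9 with limma on log2(FPKM + 1) and 0 with limma without a filter (22 with an unadjusted p under 0.05 lower). It was 31 with the adjusted p alone (all tested genes: 20.0%), which also gave 1 higher. Leaving out 1 library gave 12 to 16. Members with a peak at a score of at least 100 were 8 in vehicle (20.0%, tested genes 8.41%, genes as abundant 10.9%) and 5 in gemcitabine (12.5%, 10.4% and 13.3%), and scores of the lists are not comparable. The fold change turned above 0 with limma on log2(FPKM + 1), log2(FPKM + 0.1) and log2(FPKM + 1) without a filter for DDX51 (0.12, 0.13, 0.12), RBM28 (0.068, 0.070, 0.068), DDX27 (0.049, 0.050, 0.049), FTSJ3 (0.021, 0.022, 0.021) and NMD3 (0.13, 0.13, 0.13), and with library totals for NVL (0.011) and NMD3 (0.010). The cause was not tested. The members' other values kept their direction in all 12 fits. Arms of 1 library were assumed to vary like the other condition.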
